A study of Mus musculus with 6 samples.

Results

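The interleukin-1 (IL-1) family members described here are 9 named genes: the ligand genes Il1a, Il1b, Il18 and Il33, the antagonist genes Il1rn and Il18bp, and the receptor genes Il1r1, Il1rl1 and Il1rap. They were chosen by name, with earlier results of these arrays known. Of the 9, 7 were measured among 19938 tested genes; Il1r1 and Il1rl1 are paired with no probe set of their own by the platform annotation used and were not analysed here. For a gene with several probe sets, the brightest by its 6-array mean was selected on measured level, but each of the 7 members had a single probe set, so this choice changed nothing. RNA came from bone marrow stromal cells (BMSCs), adherent marrow cells able to form bone or fat, of microRNA-188 knockout mice (KO188, 3 arrays) and of wild-type mice (WT, 3 arrays). All mice had the C57BL/6 background and were 6 months old, and all cells were in the same osteogenic medium, which held 10% serum with 0.05 mM ascorbate-2-phosphate, 10 mM beta-glycerophosphate and 100 nM dexamethasone. The labels give neither the part of the locus that was deleted nor whether each sample came from a separate mouse or culture. Dexamethasone, a glucocorticoid that lowers the expression of many cytokine genes, was present in every sample.

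IL-1 alpha and IL-1 beta signal through the receptor IL1R1, which on binding them recruits the accessory chain IL1RAP; the antagonist encoded by Il1rn occupies the same receptor without recruiting that chain. IL-18 uses its own receptor pair and is held in solution by the binding protein encoded by Il18bp, while IL-33 signals through ST2, the product of Il1rl1, again with IL1RAP. IL-1 beta and IL-18 are made as precursors that caspase-1 cuts inside inflammasomes. In bone, IL-1 acts on stromal cells and osteoblasts to favour osteoclast formation. The arrays read RNA, so cleavage, secretion and the balance of ligand and antagonist proteins were not measured.

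The probe set paired with Mir188, the deleted gene, was read at 7.03, 7.13 and 7.09 in the KO188 arrays, against 7.15, 7.13 and 7.16 in the WT arrays. It differed by -0.06 (SE 0.034, limma adjusted p = 0.24), and since the deleted stretch is not given and such probe sets may not read the mature microRNA, it gives no check of the genotype labels. The 6 arrays had median log2 levels of 7.43 to 7.502. Across tested genes, which are not independent of each other, Pearson's r was 0.9988 to 0.9993 within groups and 0.9909 to 0.9912 between them. The p-values set each difference between the groups against the spread within them, which limma pools in part across genes. That spread may be technical only, and with 3 arrays a group the precision is limited. No label gives a batch holding both groups, so genotype and a difference in culture or handling between the groups cannot be told apart for any gene. Levels of olfactory and vomeronasal receptor genes (1194 genes, median 4.88, 95th percentile 6.72) serve as a rough guide to unexpressed probe sets; the guide was chosen with the data known. In bulk RNA, fewer cells of a type and less RNA per cell cannot be told apart.

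Both antagonist genes and Il18 were higher in KO188, Il1a was lower, and Il1b, Il33 and Il1rap did not pass the test. In counts, 3 of 7 measured members rose and 1 fell at a limma adjusted p under 0.05, against 13.3% of all tested genes called higher, 16.5% called lower and 29.8% called in either direction. With each array centred on its median, 2007 genes were higher and 4505 lower over all tested genes, in place of 2643 and 3294, while the members' counts stayed at 3 and 1; with quantile normalization 3 members were higher and 2 lower. The groups did not overlap in the same 4 members, as in 41.5% of all tested genes. Leaving out genes under the 50th percentile of level raised the shares to 26% called higher and 36.3% called lower of 9969 genes. Of the 3 members left there, 2 were higher and 0 lower. The median change of the 7 members was 0.06 on the log2 scale, beside -0.01 for all tested genes.

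The promoters of the 4 members that passed the test are shown, since 3 of them rose and 1 fell in the same samples. They are RefSeq windows of build GRCm38.p6, from 250 bases before to 50 bases after an annotated start, printed 5′ to 3′ on the gene's strand, and the capitals mark motif matches. Il1rn has 3 such windows, of which the most upstream is printed. They lie at chr2:24336610-24336909 on the plus strand (Il1rn), chr7:102018183-102018482 on the minus strand (Il18bp), chr9:50554450-50554749 on the plus strand (Il18) and chr2:129309923-129310222 on the minus strand (Il1a).
Il1rn: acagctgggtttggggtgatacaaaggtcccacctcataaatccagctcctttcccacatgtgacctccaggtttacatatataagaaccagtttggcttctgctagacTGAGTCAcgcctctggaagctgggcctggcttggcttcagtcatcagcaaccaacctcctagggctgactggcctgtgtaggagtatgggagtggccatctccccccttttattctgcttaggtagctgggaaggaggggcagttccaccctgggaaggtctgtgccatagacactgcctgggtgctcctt
Il18bp: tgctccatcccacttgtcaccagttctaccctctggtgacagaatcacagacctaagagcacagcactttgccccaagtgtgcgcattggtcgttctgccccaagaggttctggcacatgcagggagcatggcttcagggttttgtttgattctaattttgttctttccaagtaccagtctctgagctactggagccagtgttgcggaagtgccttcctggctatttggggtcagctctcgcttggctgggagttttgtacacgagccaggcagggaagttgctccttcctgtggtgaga
Il18: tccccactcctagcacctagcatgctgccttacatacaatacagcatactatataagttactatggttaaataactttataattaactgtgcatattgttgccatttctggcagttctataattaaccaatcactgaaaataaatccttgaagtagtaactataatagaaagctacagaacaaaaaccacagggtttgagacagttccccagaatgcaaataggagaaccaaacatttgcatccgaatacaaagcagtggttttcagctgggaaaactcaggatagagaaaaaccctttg
Il1a: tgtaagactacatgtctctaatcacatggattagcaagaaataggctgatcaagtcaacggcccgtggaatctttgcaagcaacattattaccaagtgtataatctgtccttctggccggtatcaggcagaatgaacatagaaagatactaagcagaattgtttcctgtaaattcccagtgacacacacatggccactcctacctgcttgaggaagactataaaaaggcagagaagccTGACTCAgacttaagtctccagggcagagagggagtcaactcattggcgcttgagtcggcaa

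All 14 windows of the 9 members were searched on both strands for 4 motifs: the interferon-stimulated response element, the gamma-activated site TTCNNNGAA, the AP-1 site TGANTCA and an NF-kB consensus site, with no overlaps among the matches. The AP-1 letters were found in 2 members, Il1rn (bases -141 to -135 from the start) and Il1a (bases -12 to -6). For Il1rn this was the most upstream of its 3 windows only, and which of the 3 starts these cells used was not tested. The same letters were found in 7.81% of all 32851 windows and in 8.97% of genes with a window. The interferon-stimulated response element was found in Il1rap only, 20 to 29 bases after the start, beside 3.44% of all windows. The NF-kB site was found in the downstream window of Il1r1 only (8.46% of all windows), and the gamma-activated site in 0 of the 14 (8.30% of all windows). None of the 4 motifs was found in the windows of Il18bp, Il18, Il1b, Il33 or Il1rl1. A match is a description of the letters and not of binding.

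**Figure D1:**
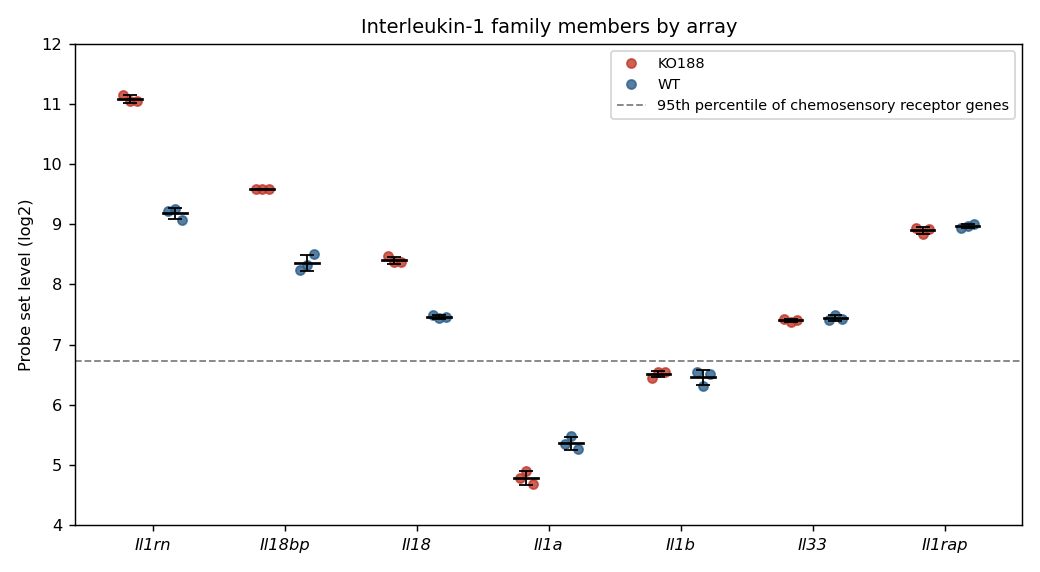
Probe set level on the log2 scale for the 7 measured members in 3 KO188 arrays (red, left of each pair) and 3 WT arrays (blue, right); points are arrays, the horizontal bar is the mean, the error bar is the SD and the dashed line is the receptor guide of 6.72. KO188 points stand above WT points for Il1rn, Il18bp and Il18, below them for Il1a, and overlap for Il1b, Il33 and Il1rap.

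Il1rn, the IL-1 receptor antagonist gene, showed the largest change of the 7. Its log2 level was 11.16, 11.05 and 11.05 in the KO188 arrays, against 9.23, 9.25 and 9.08 in the WT arrays. The lowest KO188 array stood 1.80 above the highest WT array and the spread within each group was far smaller. The means were 11.09 ± 0.06 in KO188 and 9.18 ± 0.09 in WT (SD, n = 3 each), so that KO188 stood 3.74-fold higher (95% interval 3.41 to 4.10; log2 change 1.90, SE 0.056; limma adjusted p = 2.2e-06). By size of rise it ranked 99th of 19938 tested genes. All 6 arrays lay above the receptor guide, and WT cells also carried a signal for this transcript.

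Il18bp, which encodes the soluble inhibitor of IL-18, was read at 9.59 in each of the 3 KO188 arrays, against 8.24, 8.33 and 8.51 in the WT arrays. The groups stood 1.08 apart at their closest. The KO188 values are identical in all deposited digits, so their SD was 0.00 and the residual spread of this gene came from the WT arrays (mean 8.36 ± 0.14, SD, n = 3) and from limma's pooling across genes. Such triplets occurred in KO188 for 359 of the 19938 tested genes and in WT for 465. The log2 change was 1.23 (SE 0.066, limma adjusted p = 3.4e-05), or 2.34-fold (95% interval 2.10 to 2.61), and the true spread between KO188 samples is not given by these values.

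Il18, the ligand that Il18bp's product neutralises, rose as well. Its log2 level was 8.47, 8.37 and 8.37 in the KO188 arrays, against 7.499, 7.44 and 7.46 in the WT arrays. Every KO188 array was at least 0.87 above every WT array. The change was 0.94 (SE 0.038, limma adjusted p = 9.1e-06), or 1.92-fold (95% interval 1.80 to 2.04), from means of 8.40 ± 0.06 in KO188 and 7.46 ± 0.03 in WT (SD, n = 3 each). In the RefSeq gene table Il18 overlaps both neighbours, Bco2, which rose by 0.33 (limma adjusted p = 0.010), and Tex12, at 0.06 (adjusted p = 0.34); whether the probe sets share sequence was not tested. The arrays thus read more RNA both for this ligand and for its inhibitor in KO188, and their proteins were not measured.

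Il1a, the gene of the IL-1 alpha ligand, was the only measured member to fall. Its log2 level was 4.78, 4.90 and 4.67 in the KO188 arrays, against 5.35, 5.48 and 5.26 in the WT arrays. The groups did not overlap, with 0.36 between the highest KO188 and the lowest WT array. The change was -0.58 (SE 0.074, limma adjusted p = 0.0015; means 4.78 ± 0.11 in KO188 and 5.36 ± 0.11 in WT, SD, n = 3 each). All 6 arrays were under the receptor guide of 6.72, and the KO188 mean was under the receptor median of 4.88, so the size of the fall is inexact and expression in either group is not shown.

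Il1b, the gene of the IL-1 beta ligand and the direct neighbour of Il1a on chromosome 2, was read at 6.44, 6.54 and 6.54 in the KO188 arrays, against 6.54, 6.31 and 6.51 in the WT arrays. The groups overlapped, 3 of the 6 arrays held the identical value, and all 6 lay under the receptor guide. The difference was 0.06 (95% interval -0.10 to 0.22, limma adjusted p = 0.59). Il33, the gene of a nuclear alarm cytokine, was read at 7.42, 7.38 and 7.41 in the KO188 arrays, against 7.40, 7.49 and 7.42 in the WT arrays. These overlapped above the guide, with a difference of -0.04 (95% interval -0.11 to 0.04, limma adjusted p = 0.48). For Il33 a change of the size seen for Il18 lay outside this interval; for Il1b, whose probe set was under the guide, the interval sets no such limit.

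Il1rap, the accessory chain shared by the IL-1 and IL-33 receptors, was the only receptor gene measured among the members. Its log2 level was 8.94, 8.84 and 8.92 in the KO188 arrays, against 8.93, 8.97 and 8.998 in the WT arrays. The groups overlapped narrowly, with 2 of 3 KO188 arrays under every WT array. The difference was -0.07 (95% interval -0.16 to 0.02, limma adjusted p = 0.23), and it passed the test under quantile normalization alone (-0.12, adjusted p = 0.040).

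**Figure D2:**
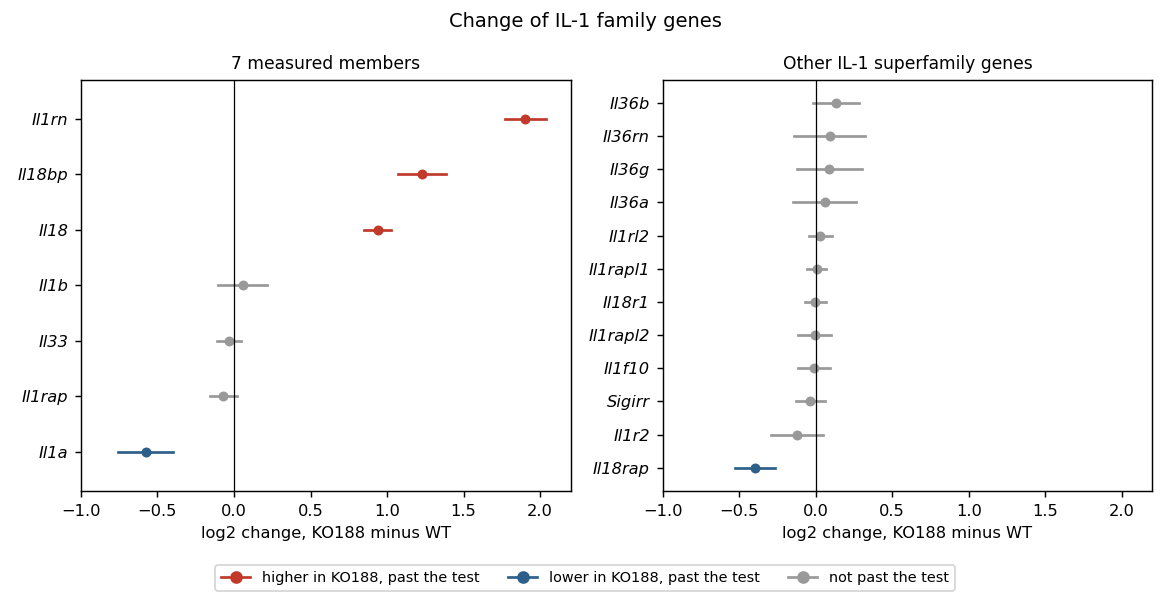
Log2 change (KO188 minus WT) of the 7 measured members (left) and of the other IL-1 superfamily genes (right); points are limma estimates, bars are 95% intervals, and colour gives the direction past the test. Il1rn, Il18bp and Il18 lie right of 0, Il1a and Il18rap left of it.

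Among the other ligand and receptor genes of the superfamily, a single gene passed the test. Of 12 measured, 0 rose and 1 fell (8.33% called, beside 29.8% of all tested genes), with a median log2 change of 0.00. Of these 12, 9 had 6-array means at or under the receptor guide, so the 2 shares compare genes of unlike level. Only 2 of the 12 were left without genes under the 50th percentile of level, and of these 0 rose and 1 fell. Among all 9969 genes left there, 26% were called higher and 36.3% lower. The gene that fell was Il18rap, the signalling chain of the IL-18 receptor. It was read at 8.25, 8.07 and 8.08 in the KO188 arrays, against 8.49, 8.54 and 8.55 in the WT arrays. The groups did not overlap, and the change was -0.39 (SE 0.054, limma adjusted p = 0.0020). Il18r1, the chain that binds IL-18, differed by 0.00 (95% interval -0.07 to 0.07) at means of 5.58 in KO188 and 5.59 in WT, under the guide. In the IL-18 arm, the ligand and inhibitor genes were therefore higher and a receptor chain gene was lower.

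Sigirr, an inhibitory receptor of the family, differed by -0.03 (95% interval -0.13 to 0.06), and Il1rl2, the receptor for IL-36, differed by 0.03 (-0.04 to 0.10); both were above the guide. Il1r2, the decoy receptor for IL-1, was under it in both groups (means 5.82 in KO188 and 5.94 in WT, difference -0.12, adjusted p = 0.27). The IL-36 genes Il36a, Il36b, Il36g and Il36rn, which the annotation lists under older names, differed by 0.06, 0.13, 0.09 and 0.09, and none passed. Il1f10 differed by -0.01, Il1rapl1 by 0.01 and Il1rapl2 by -0.01, all under the guide. With the replicate number as a block, Il36b passed at the same change (adjusted p = 0.037), at levels that no array raised over the guide.

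Inflammasome and processing genes changed in both directions, and 9 of 16 (56.2%) were called, beside 29.8% of all tested genes. Of them, 5 rose, 4 fell and 7 did not pass, and the median log2 change was -0.02. With genes under the 50th percentile of level left out, 5 of the 9 left rose and 4 fell. Of all 9969 genes left there, 26% were called higher and 36.3% lower. Casp1, whose enzyme cuts the IL-1 beta and IL-18 precursors, was read at 9.61, 9.46 and 9.48 in the KO188 arrays, against 7.92, 8.06 and 7.89 in the WT arrays. The groups stood far apart beside their spread, with a change of 1.57 (SE 0.060, limma adjusted p = 7.5e-06), or 2.96-fold. Casp4, a caspase that senses intracellular endotoxin, rose 2.37-fold (log2 change 1.25, SE 0.041, adjusted p = 3.7e-06). Gsdmd, which encodes the pore protein gasdermin D, rose 1.99-fold (0.99, SE 0.025, adjusted p = 1.0e-06).

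Aim2, a sensor of cytosolic DNA, rose by 0.57 (limma adjusted p = 0.0021). Nek7, a kinase needed by the NLRP3 inflammasome, fell by 0.50 (adjusted p = 1.6e-04), and Capn2, a calpain subunit gene, fell by 0.17 (adjusted p = 0.0024). Nlrp3 itself averaged 5.94 in KO188 and 6.08 in WT, under the guide, and Pycard, the inflammasome adaptor, averaged 6.76 in KO188 and 6.78 in WT, with 4 of 6 arrays over it; neither passed (adjusted p = 0.15 and 0.88). Nlrp3 and Pycard were named after their values were seen. The 4 falls became 2 without KO188 replicate 3, without WT replicate 3 or with the replicate number as a block.

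Of 16 measured receptor-proximal signalling genes, 8 rose and 3 fell (68.8% called, beside 29.8% of all tested genes), with a median log2 change of 0.09. All 16 had means over the receptor guide. With genes under the 50th percentile of level left out, 7 of the 15 left rose and 4 fell. Of all 9969 genes left there, 26% were called higher and 36.3% lower. Myd88, the adaptor of the signalling IL-1 family receptors, was read at 11.85, 11.83 and 11.88 in the KO188 arrays, against 11.01, 10.93 and 10.99 in the WT arrays. The groups did not overlap, and it rose 1.84-fold (log2 change 0.88, SE 0.032, limma adjusted p = 6.6e-06). Toll-like receptors use the same adaptor, so its level is not particular to this family.

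Ikbkg, the regulatory subunit of the IkB kinase, rose by 0.59 (limma adjusted p = 2.0e-05), Peli1, a ubiquitin ligase acting with the IRAK kinases, by 0.54 (adjusted p = 1.9e-04), and Traf6, the ligase downstream of them, by 0.21 (adjusted p = 0.0018). Tab2, an adaptor of the kinase TAK1, rose by 0.14 (adjusted p = 0.0052), whereas Ube2n, the ubiquitin-conjugating enzyme that works with TRAF6, fell by 0.20 (adjusted p = 0.0062). With quantile normalization 7 genes were higher and 5 lower, in place of 8 and 3.

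**Figure D3:**
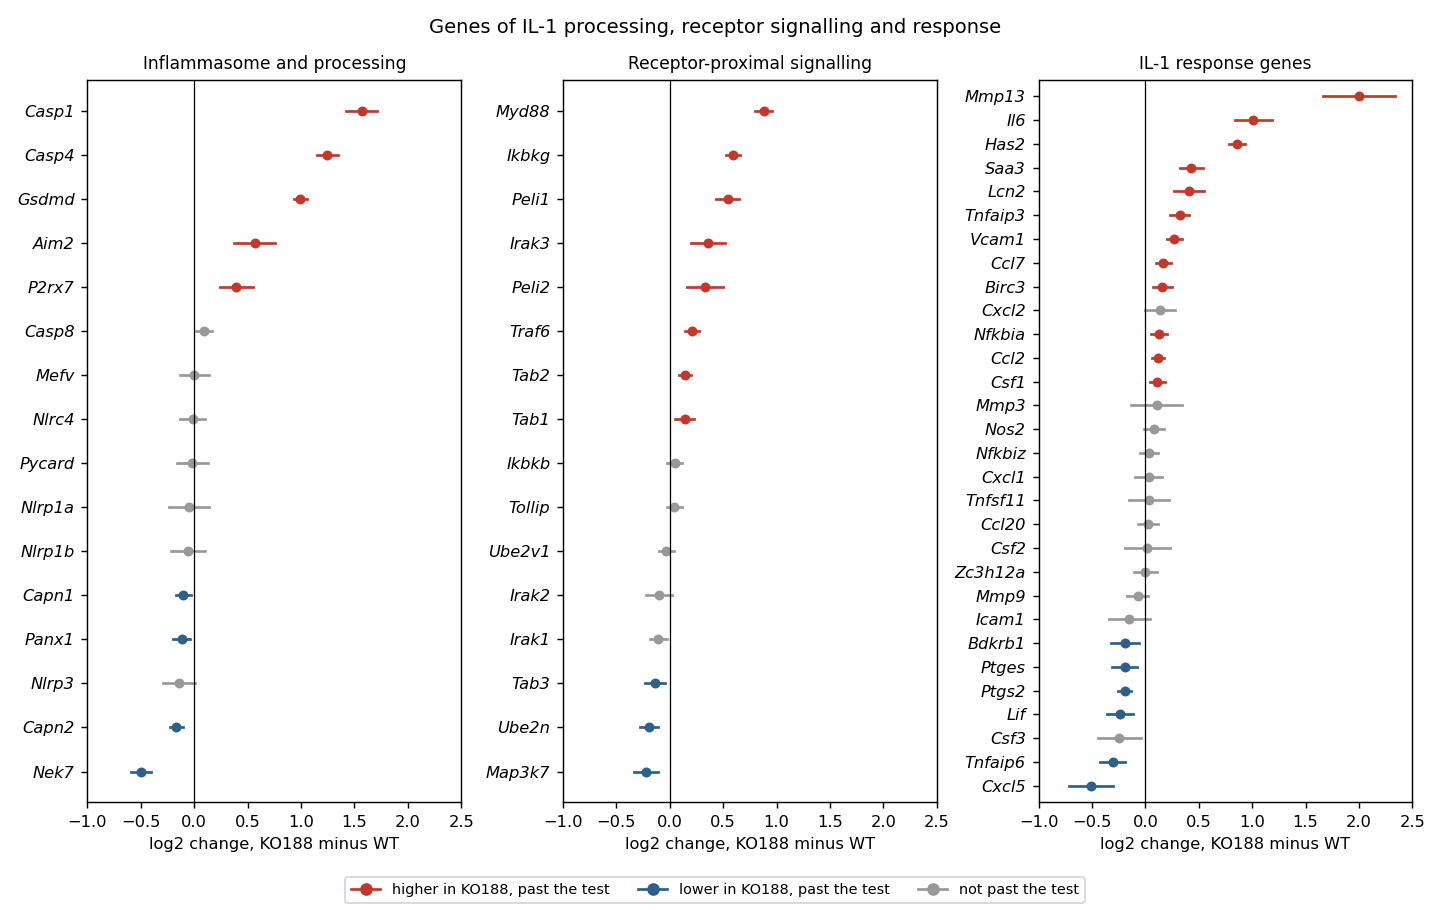
Log2 change (KO188 minus WT) of the genes of 3 lists, inflammasome and processing, receptor-proximal signalling, and IL-1 response, sorted by change; points are limma estimates, bars are 95% intervals, and colour gives the direction past the test. Casp1 and Mmp13 stand furthest right in their lists, and each list holds genes on both sides of 0.

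Genes that IL-1 is known to induce in fibroblasts and stromal cells changed in both directions. Of 30 measured, 12 rose, 6 fell and 12 did not pass, with a median log2 change of 0.06; 60.0% were called, beside 29.8% of all tested genes. With each array centred on its median, 8 rose and 7 fell. With genes under the 50th percentile of level left out, 11 of the 21 left rose and 6 fell. Of all 9969 genes left there, 26% were called higher and 36.3% lower. Mmp13, a collagenase gene of bone and cartilage, was read at 8.77, 8.52 and 8.66 in the KO188 arrays, against 6.92, 6.36 and 6.68 in the WT arrays. It rose by 1.999 on the log2 scale (SE 0.14, limma adjusted p = 1.1e-04), and since the WT mean of 6.65 lay under the receptor guide the size is inexact. Il6, the interleukin-6 gene, averaged 9.02 ± 0.14 in KO188 and 8.01 ± 0.04 in WT (SD, n = 3 each), a change of 1.01.

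Has2, a hyaluronan synthase gene, rose by 0.86 (limma adjusted p = 7.0e-06), Saa3, an acute-phase gene, by 0.43 (adjusted p = 6.5e-04), Tnfaip3, a feedback inhibitor of NF-kB, by 0.32 (adjusted p = 0.0011), and Vcam1, a cell adhesion gene, by 0.27 (adjusted p = 7.4e-04). Among the 6 that fell, named after their values were seen, were the chemokine gene Cxcl5 (-0.51, adjusted p = 0.0048), Tnfaip6, a hyaluronan-binding protein gene (-0.30, adjusted p = 0.0037), and Ptgs2, the gene of the inducible cyclooxygenase (-0.19, adjusted p = 0.0014). Other stimuli also control these genes, and no sample was treated with IL-1.

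The genes whose profile over the 6 arrays was most like that of Il1rn were Sp140, Ifi35, Tmem106a, Ifit1 and Parp12, with root mean square differences of 0.053 to 0.068 after each gene was centred on its own mean. Their log2 changes were 1.95, 1.93, 1.99, 1.92 and 1.84. For Il1a the nearest were Elovl6, Tnfrsf22, Mboat1, Btbd1 and Tnip3, at differences of 0.051 to 0.063 and with changes of -0.58, -0.49, -0.59, -0.54 and -0.54. With 6 arrays in 2 groups this likeness is mostly the size of the group difference.

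**Figure D4:**
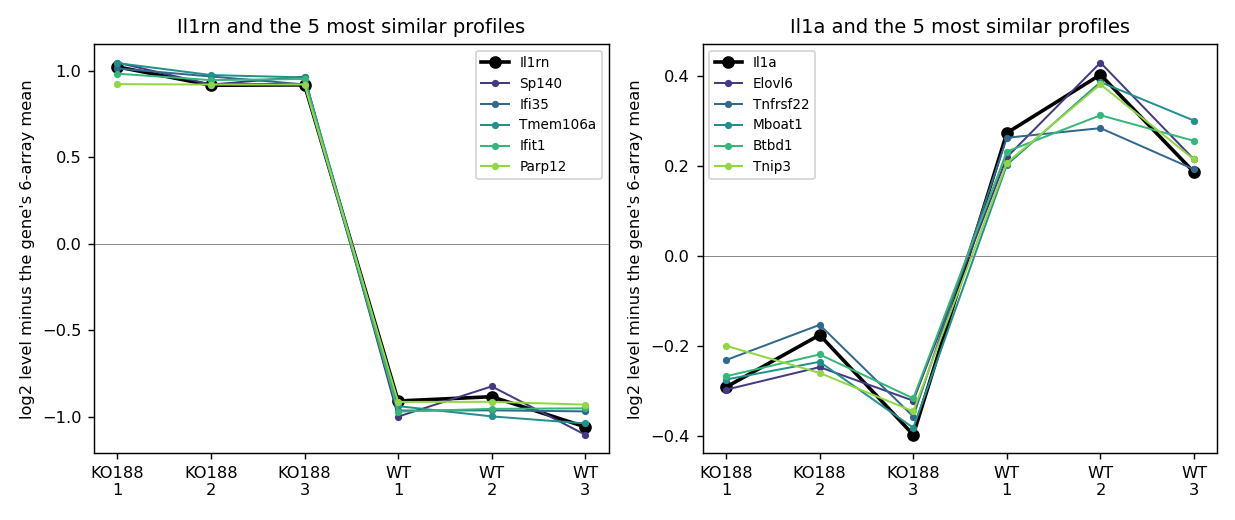
Log2 level minus the gene's own 6-array mean in the 3 KO188 and 3 WT arrays for Il1rn (left, black) and Il1a (right, black), each with its 5 most similar genes; lines only join the points of a gene. Il1rn runs near 0.9 to 1.0 in KO188 and near -0.9 to -1.1 in WT.

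Of the 8 genes flanking the 4 called members on the chromosome, 3 passed the test, beside 29.8% of all tested genes. Among the 8 are Il1b, itself a member, and Bco2 and Tex12, which overlap Il18. Next to Il1rn, Psd4 rose by 0.43 (limma adjusted p = 0.0059) and Il1f10 did not pass. Ckap2l, on the other side of Il1a from Il1b, fell by 0.19 (adjusted p = 0.0036), and Bco2 is the third. Next to Il18bp, Numa1 differed by 0.05 and Rnf121 by 0.01, and neither passed (adjusted p = 0.32 and 0.84).

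The labelled cell type was checked because macrophages, neutrophils and mast cells use IL-1 family genes heavily. Of 11 measured stromal markers 9 lay over the receptor guide, with Col1a1 at 13.11 in KO188 and 12.91 in WT. Lepr and Sp7 had 6-array means under it, Sp7 at 6.59 with 2 of 6 arrays over it. Of the 11, 8 rose (72.7%), 3 did not pass and 0 fell. Among the 8 were Sp7 and Vcam1, and Vcam1 is also counted with the IL-1 response genes. Of all tested genes 13.3% were called higher, or 26% with genes under the 50th percentile of level left out. The mean level of the 11 was 10.08 to 10.09 in KO188 arrays and 9.68 to 9.72 in WT arrays. Their median log2 change was 0.20, and the largest rises were those of Alpl (2.08) and Pdgfra (0.87). The part of these rises in the members' changes was not tested. Of 16 macrophage markers 11 lay at or under the guide, among them Adgre1, Csf1r, Ptprc and Itgam, while Cd68, Cd14, Fcgr1, Tyrobp and Mertk lay over it in all 6 arrays; the mean level of the list was 6.64 to 6.73 in KO188 arrays and 6.64 to 6.67 in WT arrays. Mertk (0.79, limma adjusted p = 1.5e-05) was the only one of the 16 that rose, and 0 fell; 4 of the 16 had an unadjusted p under 0.05 (Mertk, Cd68, Cd14 and Itgam). Of 12 neutrophil markers 9 lay at or under the guide and 0 passed limma's test (0 at an unadjusted p under 0.05); their mean level was 5.84 to 5.88 in KO188 arrays and 5.82 to 5.85 in WT arrays. Of 10 mast cell and basophil markers 9 lay at or under the guide, 1 rose (Hdc, 0.58) and 1 fell (Mcpt8, -0.97). The list had mean levels of 5.77 to 5.88 in KO188 arrays and 5.85 to 5.89 in WT arrays. Mcpt8 averaged 6.15 in KO188, under the guide, and 7.12 in WT, over it. Of 11 lymphocyte and innate lymphoid markers 8 lay at or under the guide, Gata3 rose by 0.64 and 0 fell (means 6.00 to 6.11 in KO188 and 6.05 to 6.06 in WT). Of 10 endothelial markers 6 lay at or under the guide, Kdr rose by 0.24 and 0 fell (means 6.60 to 6.66 in KO188 and 6.64 in WT). Kdr averaged 6.63 in KO188 and 6.40 in WT, both under the guide, with 1 of 6 arrays over it. Beside 29.8% of all tested genes, 6.25% of macrophage, 20.0% of mast cell and basophil, 9.09% of lymphocyte and 10.0% of endothelial markers were called. Most genes of these lists lay at or under the guide, while the 29.8% covers genes of all levels. The low shares therefore do not show that these markers were stable.

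**Figure D5:**
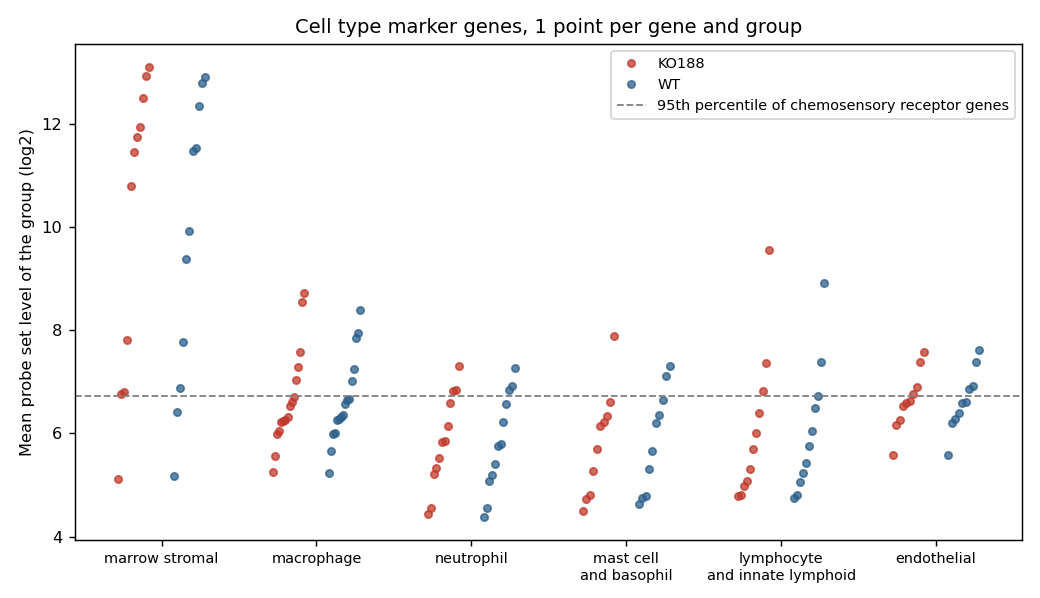
Group mean level on the log2 scale of every measured marker gene of 6 cell types, KO188 (red) left of WT (blue), with 1 point per gene; the dashed line is the receptor guide of 6.72. Most stromal markers stand above the line, and most markers of the other cell types stand below it in both groups.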

How the data were processed

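Messenger RNA was read on 6 Affymetrix arrays, 1 per sample. The authors deposited 1 log2 value per probe set and array (35556 probe sets); Partek, Affymetrix Expression Console and RMA are credited to the submitters' processing notes, which give no versions or order. Genome build and probe annotation: not given in the sources used here. RMA compresses dim signals, so changes of dim genes may be understated. GEO's platform annotation pairs 21789 probe sets with 1 symbol, 1621 with several and lists none of 12146. Only the first kind was named, with symbols checked against RefSeq (21698 matched, 0 changed), and 19938 genes were tested without a filter. Groups were taken from the genotype labels and compared in R 4.3.3 by limma 3.58.1 (lmFit and eBayes without covariates, two-sided, Benjamini-Hochberg over all tested genes, threshold 0.05); the fit was also tested on simulated data. Figures were drawn with matplotlib 3.10.9.

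The members, the pathway and marker lists and the guide from receptor genes were chosen with earlier results of these data known. All members and all other IL-1 superfamily genes were named, then up to 6 called genes with the lowest p of each pathway list, and the 5 genes most like Il1rn and Il1a, skipping predicted genes and chemosensory receptors; exceptions are marked. Alternatives were median centring, quantile normalization, a filter on genes under the 50th percentile, other uses of multiple probe sets, an intensity trend, the replicate number as a block, and leaving out each array. Leaving out genes with identical values within a group was added after the data were seen.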

Additional observations from a re-analysis of the deposited data

How the results depend on the processing

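The rises of Il1rn, Il18bp and Il18 and the fall of Il1a kept their direction and passed limma's test under every alternative that tested them. Il1rn ran from 1.85 to 1.94 over 14 alternatives (adjusted p at most 9.0e-05). Over 13 each, Il18bp ran from 1.17 to 1.30 (at most 7.4e-04), Il18 from 0.88 to 0.96 (at most 2.9e-04) and Il1a from -0.63 to -0.52 (at most 0.010). Leaving out genes under the 50th percentile dropped Il1a, Il1b, Il33 and Il18 from the test, which left 0 members lower in KO188 and 2 higher. Leaving out genes with identical values in a group dropped Il18bp. With quantile normalization 2 members were lower, Il1a and Il1rap. With each array left out in turn Il1b ran from -0.0152 (without WT replicate 2, adjusted p = 0.84) to 0.1023, so its sign changed, and it did not pass there or in the other alternatives. Where all 19938 genes were tested, calls numbered 4835 to 6512 over the alternatives, beside 5937. Other alternatives tested other numbers. With every probe set on its own, 6603 of 21789 probe sets were called. Leaving out genes under the 50th percentile gave 6217 of 9969 genes, and leaving out genes with identical values in a group gave 5860 of 19136. No pairing of the samples by replicate number was seen, though 3 arrays a group cannot exclude one. Deviations of same-numbered arrays correlated at 0.018, 0.01 and -0.028. Replicate 1 correlated best with its own number in both directions, and the other replicates did not. With the replicate number as a block, 5019 genes were called; this replicate block left 3 members higher and 1 lower. Il1a and Il1b lie under the receptor guide, which limits what can be said of their size.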
